A study of Mus musculus with 6 samples.

Results

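The mouse zinc finger genes with symbols from Zfp900 to Zfp999 were followed in embryonic stem (ES) cells that carry the reporter 2C::tomato, in reporter-positive against reporter-negative cells. A gene was a member when a probeset of the array carried its symbol and no other, and when that symbol was Zfp followed by a number in that range. There were 34 such genes among 19938 genes with a symbol of their own, on 36 probesets, and the probeset with the highest mean over the 6 arrays stood for a gene with several. RefSeq lists 62 symbols of this kind without a letter at the end. The other 28 had no probeset of their own: 18 appeared only on probesets that carry several symbols, and 10 on no probeset listed here.

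Most of these genes encode proteins with a row of C2H2 zinc fingers that read DNA sequence. Many also carry a KRAB domain, which binds the co-repressor Trim28 (KAP1); Trim28 in turn brings in the histone methyltransferase Setdb1, and the bound DNA, often a retrotransposon, is packed into silent chromatin. The genes lie in clusters of recently duplicated copies, so that neighbours resemble each other in sequence, and the targets of most of them are not known. The numbers in these symbols were handed out by nomenclature and name no shared function.

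RNA came from 3 reporter-positive and 3 reporter-negative samples of ES cells, all titled WT, grown on gelatin and separated by flow cytometry. The protocol names vehicle or 4OHT (4-hydroxytamoxifen) for the deletion of Kdm1a, without saying which of the WT samples received which, so carriage of a deletable Kdm1a allele and exposure to either agent may be common to both groups. In published work this reporter is a tomato fluorescent protein under the promoter of an endogenous retrovirus that is active in the two-cell embryo; it marks a small, changing share of ES cells. All arrays held bulk RNA, in which more cells of a kind and more RNA per cell cannot be told apart. Values are log2 expression after RMA, a difference is always positive minus negative, and values of different genes come from different probes and cannot be ranked as amounts. Replicate numbers 1 to 3 occur in both groups, and arrays that share a number are called a pair. Where a value is given without 1 array, the partner of that array was kept. Differences between replicate numbers therefore enter such values.

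The ES cell markers Pou5f1, Nanog and Sox2 lay between 11.57 and 12.98 in every array. Among all 12 ES cell markers listed, 5 were higher and 7 lower in positive arrays. Only Esrrb was lower without overlap (8.33% of the list, against 7.15% of all genes), at -0.36 (SE 0.17). In pair 2, 6 of the 12 were higher, while Sox2 differed by -0.68 and Utf1 by -0.92. Kdm1a differed by -0.12 (SE 0.12), or by -0.031 without negative array 2. Of 12 two-cell-state markers, 9 were measured and all 9 were higher without overlap in positive arrays, in a list chosen with results of these data known. Their mean level was 5.58 to 5.72 in the negative arrays. It was 7.88 in positive array 1, 10.72 in positive array 2 and 6.90 in positive array 3, so positive array 2 stood furthest from the negative cells. Fibroblast markers were lower in positive arrays for 8 of 12 and primitive endoderm markers for 7 of 8, where 12012 of 19938 genes were lower, and trophectoderm markers were divided, 4 higher and 4 lower. Fibroblast markers averaged 7.12 to 8.002 in positive and 7.54 to 8.02 in negative arrays, endoderm markers 7.50 to 7.91 and 7.89 to 8.24, and trophectoderm markers 8.60 to 9.57 and 8.77 to 9.51. What part other cells have in the results on the zinc finger genes was not tested.

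Promoters of several members are related to each other, and they are shown here so that the values of members with related starts can be set beside those of members with unrelated starts. RefSeq (GRCm38.p6) gave a start for 32 of the 34 members, and sequences from 250 bases before it to 50 after it were compared. Of 496 pairs of members, the median had 124.5 identical bases after alignment. Linking promoters that shared at least 200 of 300 bases gave a group of 8 (Zfp931, Zfp935, Zfp938, Zfp950, Zfp958, Zfp959, Zfp971 and Zfp975), a group of 3 (Zfp979, Zfp980 and Zfp985) and the pairs Zfp942 with Zfp944 and Zfp948 with Zfp983, while 17 promoters stood alone. Links were chained, so promoters of the group of 8 without a direct link shared fewer bases, down to 157. The limit of 200 bases was set after the alignments were seen.

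The 250 bases before the start of 3 genes of the group of 8 are given 5′ to 3′ with the matches to searched motifs in capitals: CCAAT or ATTGG is the CCAAT box read on either strand, CCAATCAG its longer form, and CTTCCGG, found in Zfp958, the ETS motif on the other strand.
Zfp935 (chr13:62466813-62467062, minus strand): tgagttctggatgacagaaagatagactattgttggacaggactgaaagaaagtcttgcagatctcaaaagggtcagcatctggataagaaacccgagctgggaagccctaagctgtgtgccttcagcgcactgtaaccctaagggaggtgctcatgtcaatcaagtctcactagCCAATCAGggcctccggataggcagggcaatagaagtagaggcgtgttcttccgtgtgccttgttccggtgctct
Zfp958 (chr8:4612920-4613169, plus strand): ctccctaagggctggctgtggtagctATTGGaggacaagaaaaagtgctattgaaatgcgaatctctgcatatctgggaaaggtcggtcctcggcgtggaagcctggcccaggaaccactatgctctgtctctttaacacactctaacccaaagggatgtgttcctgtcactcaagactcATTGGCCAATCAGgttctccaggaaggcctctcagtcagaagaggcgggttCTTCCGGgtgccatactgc
Zfp971 (chr2:178023034-178023283, plus strand): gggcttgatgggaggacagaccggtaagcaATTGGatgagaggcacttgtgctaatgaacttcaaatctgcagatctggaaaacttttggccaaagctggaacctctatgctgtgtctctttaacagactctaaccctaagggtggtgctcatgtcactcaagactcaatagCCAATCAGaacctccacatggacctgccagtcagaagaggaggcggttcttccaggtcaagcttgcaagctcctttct

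Each of these stretches holds CCAATCAG at a like distance from the start, in related surroundings. Zfp958 and Zfp971 shared 213 identical bases and Zfp935 and Zfp971 shared 208. The CCAAT box, bound by NF-Y, was present in 21 of 32 member promoters (65.6%), against 37.9% of all 27025 promoters of this length and 44.8% of those of Zfp1 to Zfp899. The longer CCAATCAG, which contains the CCAAT box and was added after the sequences were seen, was in 9 of 32 (28.1%), among them 6 of the group of 8, against 4.31% of all promoters and 10.3% of those of Zfp1 to Zfp899. These members share ancestry, so the matches are not independent of each other.

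The closest match was Zfp942 with Zfp944, with 274 identical bases among 275 aligned. Both promoters hold the GC box GGGCGG, in capitals for Zfp942; in Zfp944 it crosses the end of the printed bases.
Zfp942 (chr17:21962465-21962714, minus strand): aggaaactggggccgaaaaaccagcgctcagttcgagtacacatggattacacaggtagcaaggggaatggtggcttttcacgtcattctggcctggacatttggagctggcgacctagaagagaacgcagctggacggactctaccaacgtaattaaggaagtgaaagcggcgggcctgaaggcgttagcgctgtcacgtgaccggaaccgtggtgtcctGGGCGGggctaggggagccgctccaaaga
Zfp944 (chr17:22361401-22361650, minus strand): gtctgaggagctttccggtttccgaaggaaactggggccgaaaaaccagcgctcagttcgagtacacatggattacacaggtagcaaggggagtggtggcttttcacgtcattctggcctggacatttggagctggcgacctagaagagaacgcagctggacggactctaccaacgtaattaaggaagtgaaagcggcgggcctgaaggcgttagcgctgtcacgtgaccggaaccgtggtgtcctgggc

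Zfp949, the member with the largest difference when arrays weigh equally, had a promoter of no group and no match to any motif searched.
Zfp949 (chr9:88547770-88548019, plus strand): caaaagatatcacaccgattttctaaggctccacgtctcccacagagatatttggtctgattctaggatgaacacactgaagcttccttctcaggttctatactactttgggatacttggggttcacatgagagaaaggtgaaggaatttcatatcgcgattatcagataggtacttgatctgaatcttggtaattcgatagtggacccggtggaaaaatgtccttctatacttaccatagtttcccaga

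Among the other motifs, read on both strands, GGGCGG was in 13 of 32 member promoters (40.6%), against 35.9% of all and 46.4% of those of Zfp1 to Zfp899. The ETS motif CCGGAAG was in 6 (18.8%), against 9.12% of all and 21.4% of those of Zfp1 to Zfp899. The TATA box TATAAA was in 0 of 32, against 14.2% of all promoters and 7.14% of those of Zfp1 to Zfp899. The motifs of NRF1 (4.78% of all), YY1 (0.699%) and Kaiso (0.496%) and a Dux-like motif (0.0407%), each searched in 1 spelling, were in 0 of 32 as well. These counts describe letters in this window and say nothing of the factors. CpG-rich promoters, with over 50% G and C and an observed to expected CpG ratio above 0.6, made up 6 of 32 (18.8%), against 33.9% of all.

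Higher values in reporter-positive cells were the rule among the Zfp900 to Zfp999 genes: 31 of 34 had a difference above 0, against 39.8% of all genes, yet each difference was small and no member passed the test. The median difference was 0.26 over the members and -0.043 over all genes, and the largest was 1.58-fold. In same-numbered pairs, 20 of 34 members were higher in all 3 pairs (15.1% of all genes), and 0 were lower in all 3 (23.7% of all genes). All 3 positive arrays lay above all 3 negative arrays for 8 members (4.08% of all genes) and below them for 0 (7.15% of all genes).

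With limma, 0 of 34 members and 0% of all genes had an adjusted p under 0.05 (smallest 0.910 for both). At an unadjusted p under 0.05, 6 members were higher (1.95% of all genes) and 0 lower. With the replicate number as a block, 0 members passed (smallest adjusted p 0.396), and 17 were higher at an unadjusted p under 0.05 (5.4% of all genes). The count without overlap was 15 without positive array 2 (10.9% of all genes) with fewer arrays to compare.

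**Figure D1:**
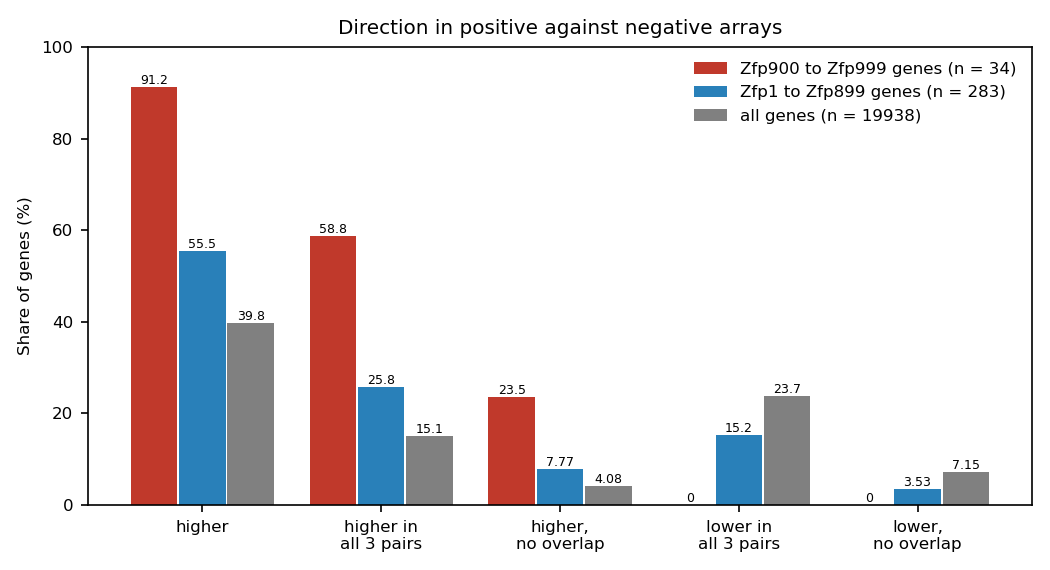
Share of genes (%) in each direction for the 34 Zfp900 to Zfp999 genes, the 283 Zfp1 to Zfp899 genes and all 19938 genes; each bar is one share, in positive against negative arrays. The bars for Zfp900 to Zfp999 are 91.2% for higher and 58.8% for higher in all 3 pairs, and 0 for both lower classes.

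The other numbered zinc finger genes were measured the same way. Of 283 genes from Zfp1 to Zfp899, 157 were higher (55.5%), with a median of 0.023, and 73 were higher in all 3 pairs (25.8%) against 43 lower in all 3 (15.2%). They were higher without overlap for 22 (7.77%). Their 25th to 75th percentile ran from -0.098 to 0.17, and that of the Zfp900 to Zfp999 genes from 0.18 to 0.36. These are descriptions of both lists on the same arrays, with no test of the difference between them.

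**Figure D2:**
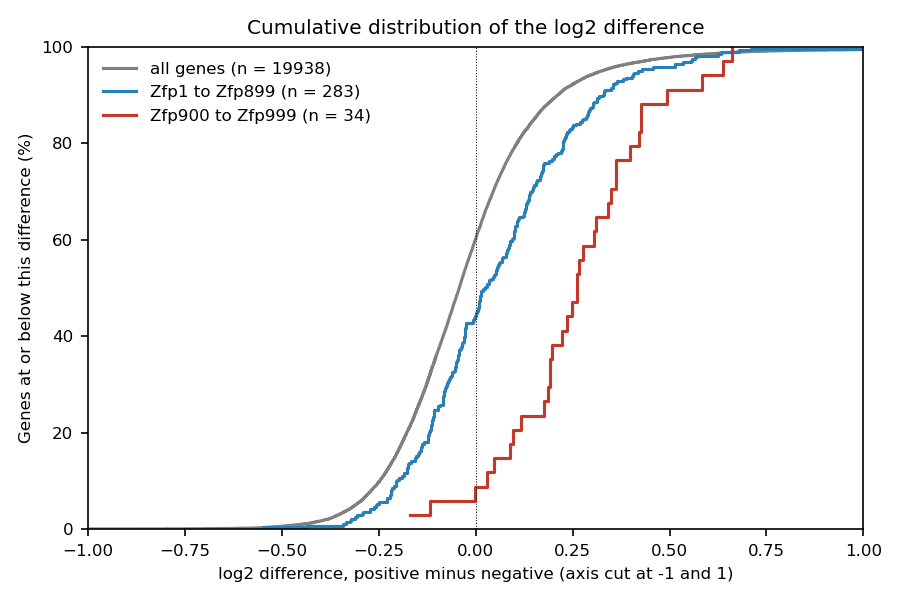
Cumulative share of genes (%) by log2 difference, positive minus negative, for all genes (grey), Zfp1 to Zfp899 (blue) and Zfp900 to Zfp999 (red); the axis is cut at -1 and 1. The red curve lies to the right, with a median of 0.26 against 0.023 for the blue and -0.043 for the grey.

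Zfp949 (probeset 10587655) had the largest difference in the fit with equal weights. Its level was 7.67, 8.30 and 7.93 in positive arrays 1, 2 and 3 and 7.18, 7.29 and 7.44 in negative arrays 1, 2 and 3. The groups did not overlap and positive array 2 was the highest. The difference was 0.66 (SE 0.18), or 1.58-fold (limma adjusted p = 0.910). With array weights it was 0.40, below Zfp954 at 0.59 and Zfp951 at 0.57.

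Zfp935 (probeset 10409970), whose promoter belongs to the group of 8, also had groups that did not overlap. It stood at 9.29, 9.83 and 9.48 in positive arrays and at 8.79, 8.80 and 9.09 in negative arrays. Positive array 2 was again the highest. The difference was 0.64 (SE 0.17; limma adjusted p = 0.910), with 0.50, 1.03 and 0.39 in pairs 1, 2 and 3, and 0.35 with array weights.

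Zfp958 (probeset 10569985), of the same promoter group, varied little between arrays of a group. Its positive arrays were at 8.74, 8.79 and 8.74 and its negative arrays at 8.47, 8.24 and 8.27, so positive array 2 hardly stood out. The difference was 0.43 (SE 0.11), and its unadjusted limma p of 0.00595 was the lowest of the members (adjusted p = 0.910). The sort accounted for 89.0% of its variation over the 6 arrays.

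Zfp959 and Zfp950, also of the promoter group of 8, had no overlap either. Zfp959 (probeset 10445972) was at 7.53, 7.41 and 7.41 in positive and at 7.17, 6.63 and 7.28 in negative arrays, a difference of 0.42 (SE 0.18) that was 0.22 without negative array 2 and 0.23 with array weights. Zfp950 (probeset 10468885) was at 4.92, 4.81 and 5.17 in positive and at 4.66, 4.61 and 4.54 in negative arrays. Its difference was 0.36 (SE 0.13), at the dim end of the scale, where RMA understates differences.

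Zfp946 (probeset 10442270) had no overlap although pair 2 barely differed. Its positive arrays were at 8.66, 8.51 and 8.96 and its negative arrays at 8.01, 8.46 and 8.38, a difference of 0.43 (SE 0.17) with 0.65, 0.047 and 0.58 in pairs 1, 2 and 3. Zfp942 (probeset 10448195) was at 8.33, 8.36 and 8.28 in positive and at 7.93, 7.99 and 8.21 in negative arrays, a difference of 0.28 (SE 0.12). Zfp991 (probeset 10510215) was at 11.86, 12.02 and 11.93 in positive and at 11.82, 11.66 and 11.81 in negative arrays. Its difference of 0.17 (SE 0.11) was the smallest among the 8 members without overlap. With array weights the difference was 0.14 for Zfp942 and 0.093 for Zfp991.

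**Figure D3:**
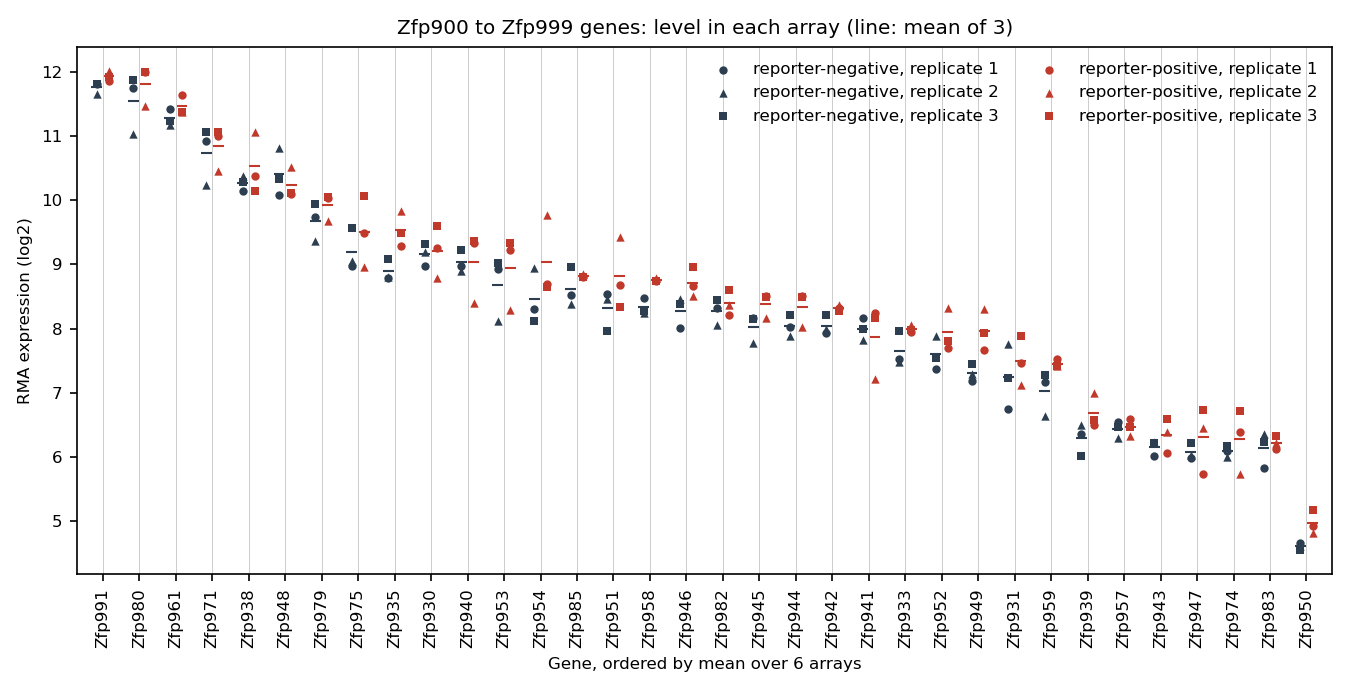
RMA expression (log2) of each of the 34 genes in the 3 reporter-negative (dark) and 3 reporter-positive (red) arrays, with replicate 1 as circles, 2 as triangles and 3 as squares and a line at each mean of 3; genes are ordered by their mean for display. In Zfp971 both arrays of replicate 2 lie apart, at 10.24 and 10.45 against 10.92 to 11.07 in the other arrays.

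The other 12 genes that were higher in all 3 pairs had overlapping groups. Zfp954 (probeset 10559820) was at 8.69, 9.77 and 8.65 in positive and at 8.30, 8.95 and 8.12 in negative arrays. Positive arrays 1 and 3 lay below negative array 2, yet each lay above its own partner, by 0.39, 0.83 and 0.54 in pairs 1, 2 and 3. Its difference was 0.58 (SE 0.35, or 0.12 with the replicate number as a block), and 0.22 without positive array 2. Zfp951 (probeset 10531946) had pairs at 0.15, 0.96 and 0.37. Its difference of 0.49 (SE 0.29) was 0.19 when positive array 2 was left out.

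Zfp945 had nearly equal pairs, with differences of 0.34, 0.39 and 0.34 and a mean of 0.36. Its positive arrays were at 8.51, 8.16 and 8.49 and its negative arrays at 8.16, 7.77 and 8.15, so that positive array 2 met the level of negative array 1. Leaving out negative array 2 gave 0.23. Zfp953 was at 9.22, 8.29 and 9.34 in positive and at 8.93, 8.11 and 9.02 in negative arrays. Replicate 2 was the lowest in both groups, and the pairs differed by 0.30, 0.17 and 0.32. The replicate number accounted for 91.4% of the variation of Zfp953 and the sort for 8.17%, and its difference of 0.26 (SE 0.35) was -0.025 without negative array 2.

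Zfp939 and Zfp952 differed by 0.40 and 0.35. Zfp939 had pairs of 0.14, 0.49 and 0.56, with 0.25 without positive array 2, and Zfp952 of 0.33, 0.44 and 0.27, with 0.16 for Zfp952 without positive array 2. Zfp933 differed by 0.34, with 0.43 and 0.58 in pairs 1 and 2 and 0.0052 in pair 3. Zfp944, whose promoter is near-identical in sequence to that of Zfp942, differed by 0.31 with pairs of 0.49, 0.15 and 0.29.

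Smaller differences in all 3 pairs were those of Zfp980, Zfp979, Zfp961 and Zfp943. Zfp980 (probeset 10510159) was at 11.99, 11.46 and 11.99 in positive and at 11.75, 11.03 and 11.87 in negative arrays, and without negative array 2 its difference of 0.27 (SE 0.26) was 0.0034. Zfp979 differed by 0.24 (0.077 without negative array 2) and Zfp943 by 0.19 (0.066 without positive array 3). Their pairs were 0.28, 0.31 and 0.11 for Zfp979 and 0.047, 0.15 and 0.36 for Zfp943. Zfp961, described as a repressor of retroviruses that prime with a lysine tRNA, was at 11.65, 11.37 and 11.38 in positive and at 11.42, 11.18 and 11.23 in negative arrays. Its pairs differed by 0.23, 0.19 and 0.15, and its difference was 0.19 (SE 0.13), or 0.10 without positive array 1.

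Pair 2, where the two-cell-state markers differed most, did not move the members one way. The median two-cell-state marker differed by 2.30, 5.81 and 1.34 in pairs 1, 2 and 3, and the median member by 0.29, 0.31 and 0.28. Members were higher for 32 of 34 in pair 1 (45.7% of all genes), 26 in pair 2 (40.9%) and 29 in pair 3 (48.6%). Pair 2 had the largest of the 3 differences for 16 members (38.3% of all genes) and the smallest for 12 (40.8%), both shares near that of all genes.

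The genes that differed most in pair 2 were Zfp935, Zfp949, Zfp951 and Zfp954, between 0.83 and 1.03 there. Zfp938 differed by 0.68 in pair 2 and by -0.13 in pair 3. It stood at 10.38, 11.06 and 10.15 in positive arrays against 10.15, 10.38 and 10.28 in negative arrays, and without positive array 2 its difference of 0.26 (SE 0.23) was -0.0044.

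Of 27 members that were higher in pairs 1 and 3, 7 were lower in pair 2. They were Zfp930, Zfp931, Zfp940, Zfp941, Zfp974, Zfp975 and Zfp983, singled out after their values were seen. Zfp931 (probeset 10490302) went furthest, at 7.47, 7.12 and 7.89 in positive and at 6.75, 7.76 and 7.23 in negative arrays. Its pairs were 0.72, -0.63 and 0.66, and negative array 2 exceeded both of the other negative arrays. Zfp940 had pairs of 0.36, -0.50 and 0.14, and Zfp941 of 0.082, -0.60 and 0.16. In both genes positive array 2 was the lowest of all 6 arrays, at 8.40 for Zfp940 and 7.22 for Zfp941. Zfp930 had pairs of 0.28, -0.42 and 0.28, Zfp974 of 0.29, -0.27 and 0.55, Zfp975 of 0.52, -0.10 and 0.50, and Zfp983 of 0.30, -0.13 and 0.10. Over all pairs, the mean differences of Zfp930 and Zfp940 were 0.047 and -0.0013.

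**Figure D4:**
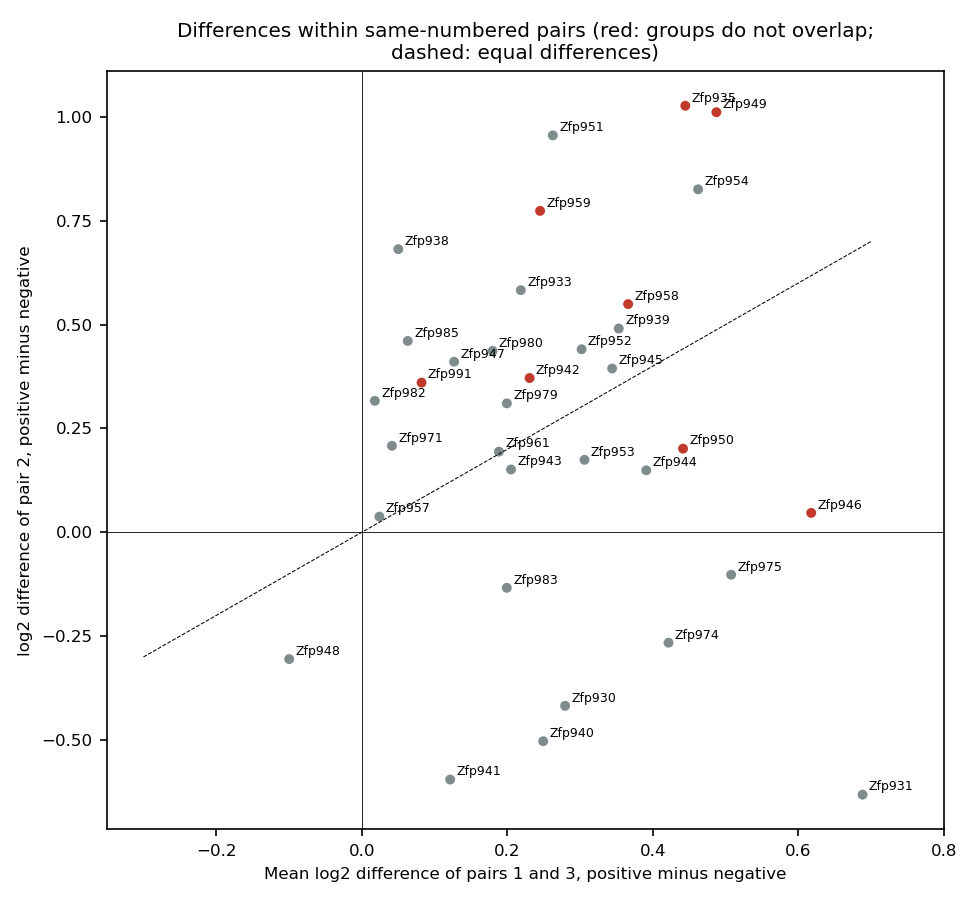
The log2 difference of pair 2 (vertical) against the mean log2 difference of pairs 1 and 3 (horizontal), positive minus negative, for each of the 34 genes; red points have groups that do not overlap and the dashed line marks equal differences. Zfp948 alone lies left of 0, and 8 genes lie below 0 in pair 2.

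The members with a difference below 0 were Zfp948, Zfp941 and Zfp940. Zfp948 (probeset 10442224) was at 10.10, 10.51 and 10.12 in positive and at 10.08, 10.82 and 10.33 in negative arrays. Replicate 2 was the highest in both groups, and the pairs were 0.014, -0.31 and -0.21. Its difference of -0.17 (SE 0.21) was 0.035 without negative array 2. For Zfp941 the difference was -0.12 (SE 0.28), against 0.21 when positive array 2 was left out.

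The remaining 5 members had differences from 0.029 to 0.22 without a common direction in the pairs. Zfp947 differed by 0.22, with -0.26 in pair 1 and 0.52 in pair 3, and Zfp985 by 0.20, with 0.46 in pair 2 and -0.16 in pair 3. Zfp982 differed by 0.12 and Zfp971 by 0.097. Single arrays moved these values: Zfp947 was at 0.0050 without positive array 3, and without negative array 2 Zfp985 was at 0.076, Zfp982 at 0.0081 and Zfp971 at -0.15. Zfp957 differed by 0.029 (SE 0.12), and all of its arrays lay between 6.29 and 6.59.

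Over the members, the replicate number accounted for more of the variation than the sort. It has more levels than the sort, so noise alone would tend to give it the larger share. The median share was 59% for the replicate number, 24% for the sort and 14.4% for the rest, against 55.3%, 13.5% and 19% over all genes. The replicate number had the larger share in 23 of 34 members and in 15102 of 19938 genes. The SD within a group was 0.25 in the median member and 0.18 in the median gene.

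Neighbours in gene order were compared, since duplicated copies lie side by side; members at most 30 gene models apart in RefSeq order were joined, which left 13 members in groups of 3 or more. Zfp948, Zfp983, Zfp942, Zfp943, Zfp947, Zfp944, Zfp946 and Zfp945 formed a row of 8. Of these 7 were higher, 5 in all 3 pairs, and their mean difference was 0.25, 0.14 and 0.26 in pairs 1, 2 and 3. Zfp991, Zfp982, Zfp985, Zfp979 and Zfp933 formed a row of 5, all higher, with mean differences of 0.19, 0.41 and 0.045. Of all members 91.2% were higher and 58.8% higher in all 3 pairs, against 39.8% and 15.1% of all genes. The mean difference over all arrays was 0.21 in both rows, and pair 2 was the smallest in the first row and the largest in the second. The 19 members with no neighbour of the list held the 4 largest differences at equal weights, Zfp949, Zfp935, Zfp954 and Zfp951.

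By promoter, all 8 genes of the group of 8 were higher, with a median of 0.33, a range from 0.097 for Zfp971 to 0.64 for Zfp935, and 4 without overlap. Over all members 91.2% were higher and 23.5% higher without overlap, against 39.8% and 4.08% of all genes. In all 3 pairs 4 of the 8 were higher, against 58.8% of all members and 15.1% of all genes. The 3 related promoters of Zfp979, Zfp980 and Zfp985 went with 0.24, 0.27 and 0.20, and those of Zfp942 and Zfp944 with 0.28 and 0.31. The linked pair Zfp948 and Zfp983 did not share a direction, at -0.17 and 0.088, and neither was higher in all 3 pairs. Of the 17 unlinked promoters, 15 belonged to genes with a difference above 0, with a median of 0.26. Genes of these 17 promoters were higher in all 3 pairs for 11 and without overlap for 2. The members with and without a CCAAT box had medians of 0.26 and 0.28.

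Zfp985 had 3 probesets of its own, at differences of 0.20 for the one used and 0.29 for each of the others. A further 28 probesets carried a symbol from Zfp900 to Zfp999 beside 1 or more other symbols, up to 18 in all. A pair of them had equal values in every array, which left 27 with distinct values. Several others shared all or most of their symbols with each other, and 12 members were named on them too. The counts below therefore repeat the same genes and are not independent of those of the members. Of the 28, 26 were higher (49.3% of all several-symbol probesets), 21 in all 3 pairs (23.2%) and 6 without overlap (7.83%). The highest, at 0.61, carried Zfp950 and Arid4b. The probeset of Zfp983 with Gm10509 differed by 0.42, where the one of Zfp983 alone differed by 0.088.

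Zfp932 and Gm15446, paralogues described as repressors of endogenous retroviruses, shared 2 probesets at 0.090 and 0.082 and had none of their own. Of the probesets that carried Zfp932 and Zfp950 among 5 symbols, one differed by 0.060 and the other by 0.038. Both probesets with Zfp936 and Zfp975 differed by 0.35. Transcripts of near-identical copies can bind the same probes, and probe sequences were not compared. The values of the 12 members also named on several-symbol probesets are therefore uncertain as single genes too. These were Zfp931, Zfp935, Zfp950, Zfp971, Zfp974, Zfp975, Zfp979, Zfp980, Zfp982, Zfp983, Zfp985 and Zfp991. Whether the same holds for Zfp942 and Zfp944, whose promoters are near-identical, was not tested.

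The partners of KRAB zinc finger proteins differed less. Of the listed partners 22 were measured; 16 were higher and 6 lower, with a median of 0.071, and 0 passed the limma test, with 0 at an unadjusted p under 0.05. In all 3 pairs 8 were higher and 2 lower. Over all genes 39.8% were higher, 15.1% were higher in all pairs and 23.7% lower in all pairs. Trim28, the co-repressor bound by KRAB domains, differed by 0.12 (SE 0.13), with -0.064, 0.37 and 0.047 in pairs 1, 2 and 3. Setdb1, the H3K9 methyltransferase, differed by 0.13 (SE 0.14), with 0.055, 0.26 and 0.078. Without negative array 2 these differences were 0.015 for Trim28 and 0.049 for Setdb1. Without overlap 2 of the 22 were higher (9.09%, against 4.08% of all genes) and 0 lower (7.15% of all genes). The 2 higher were Resf1, a retroelement silencing factor, by 0.36 (SE 0.18), and Morc3, an ATPase of silent chromatin, by 0.13 (SE 0.099). Resf1 had pairs of 0.21, 0.63 and 0.23, and its negative array 2 was the lowest of the 6 arrays, at 10.65. Cbx3, an HP1 protein, differed by -0.25 (SE 0.27).

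Among KRAB zinc finger genes of known role outside the members, Zfp809, which silences murine leukaemia virus through its proline primer binding site, was higher without overlap by 0.71 (SE 0.32; limma adjusted p = 0.910). Its pairs were 0.41, 1.40 and 0.32, and without positive array 2 the difference was 0.32. Zfp708, described as binding a retrotransposon family, differed by 0.38 (SE 0.15). Zfp57 and Zfp445, which protect imprinted regions, differed by -0.053 (SE 0.22) and 0.059 (SE 0.10), and Zfp568, a repressor of a placental Igf2 transcript, by -0.085 (SE 0.14). For comparison, the two-cell-state zinc finger gene Zfp352 differed by 3.68 (SE 0.85), far beyond every member.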

How the data were processed

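Expression was measured on Affymetrix whole-transcript arrays in 3 reporter-positive and 3 reporter-negative samples, grouped and numbered by their titles. The values are log2 expression deposited by the authors, made with RMA in Affymetrix Expression Console per the submitters' processing notes; versions, annotation and build were not given in the sources used here. RMA normalizes quantiles between arrays, so a difference in total RNA is removed. Over 35556 probesets, array medians ran from 6.95 to 7.04; precision is limited by having 3 arrays a group. Symbols came from the platform annotation (21789 probesets with 1 symbol, 1621 with several, 12146 not listed); all 36 member probesets matched RefSeq (GRCm38.p6) by gene identifier.

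The test was limma's (version 3.58.1, under R 4.3.3), by eBayes after lmFit, two-sided, adjusted by Benjamini-Hochberg across 19938 genes with a threshold of 0.05. It was run on simulated data with unpaired noise and shifts larger than the difference of any member. That run cannot tell whether differences as small as those of the members would be called. Lists are described by counts and medians, with no test. Same-numbered arrays deviated together (r = 0.546, 0.553 and 0.457 across genes for numbers 1, 2 and 3), so the numbers were taken to pair the samples, from the data alone, since no label explains them. No label states separate cultures either; p-values then reflect the spread between these samples only, which may be technical. Members and lists were chosen with earlier results of these data known. Genes were named by rule: members past the test, the 6 largest differences in each direction (only 3 lay below 0), those without overlap and with 1 direction in all pairs, the extremes of level (3 at each end) and the 3 largest SDs, with 9 fixed genes; the other 16 members were named to account for all. Shares of variation are sums of squares of a layout with sort and replicate number, not scaled for their numbers of levels. The alternatives were the block, array weights, other scalings, a filter on dim genes, probeset means and arrays left out. Each SE is from the fit without the block unless stated. No protein sequence was used here.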

Additional observations from a re-analysis of the deposited data

How the results depend on the processing

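In each of the alternatives run, 0 members, 0 genes and 0 silencing partners passed the limma test; the smallest adjusted p of a member was 0.396 with the replicate number as a block, 0.0673 with array weights (Zfp958) and 0.237 without both replicate 2 arrays. The median difference of the members stayed above 0, between 0.19 and 0.32 with 1 array left out, at 0.25 without both replicate 2 arrays and at 0.16 with array weights. Members higher without overlap numbered 10 to 15 with 1 array left out (6.03% to 11% of all genes). They numbered 14, 19 and 13 without both arrays of replicate 1, 2 or 3 (9.75%, 19.2% and 9.35% of all genes). After a second quantile normalization they numbered 6 (2.94% of all genes). Members lower in all pairs were 1 after that normalization and without both arrays of replicate 1, and 0 to 1 with 1 array left out. Members higher in all pairs numbered 22 to 27 with 1 array left out, when only 2 pairs remain, against 21% to 31.4% of all genes. Symbols ending in a letter have no probeset of their own and added no member.

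Under every alternative run, 20 members kept their sign, and the other 14 changed it under at least 1. Where 1 array was left out its partner stayed, so differences between replicate numbers entered those values. With array weights the difference was -0.025 for Zfp947, -0.087 for Zfp985, -0.047 for Zfp982, -0.032 for Zfp971, 0.10 for Zfp940, 0.13 for Zfp941, -0.034 for Trim28 and 0.073 for Zfp57. Without both replicate 2 arrays it was 0.25 for Zfp940, 0.12 for Zfp941, -0.0083 for Trim28, 0.06 for Zfp57, -0.11 for Nanog and 0.02 for Sox2. Without both arrays of replicate 1 it was -0.02 for Zfp983 and -0.07 for Zfp930, and without both of replicate 3 -0.07 for Zfp930. A second quantile normalization gave -0.0077 for Zfp930 and -0.033 for Nanog, and median centring -0.0034 for Nanog. With arrays left out, 1 or both of a number, the differences ran from -0.025 to 0.59 for Zfp953, -0.0044 to 0.46 for Zfp938, -0.00071 to 0.69 for Zfp931, -0.026 to 0.46 for Zfp974, -0.15 to 0.29 for Zfp971, -0.068 to 0.20 for Zfp983, -0.15 to 0.28 for Zfp930, -0.041 to 0.094 for Zfp957, -0.18 to 0.31 for Zfp940, -0.30 to 0.21 for Zfp941 and -0.33 to 0.035 for Zfp948. They ran from -0.18 to 0.17 for Zfp57, -0.22 to 0.075 for Pou5f1, -0.11 to 0.14 for Nanog and -0.40 to 0.045 for Sox2. The causes were not tested. Dim probesets, such as that of Zfp950, are near the lower end of the scale, where differences are compressed.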
